A study of Mus musculus with 8 samples.

Results

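Centroblasts carrying 1 intact copy of Smarca4 were compared with centroblasts carrying 2. All 4 libraries that the labels name CB were used, of 8 in the series, and all genes were fitted in these 4 alone. Of 55421 genes in the table, 13501 had enough counts to be tested. The cells were germinal centre B cells from the spleens of C57BL/6 mice aged 8 to 10 weeks, taken at day 10 after immunization. They were isolated with a bead kit that selects cells binding peanut agglutinin (PNA). Each genotype, Smarca4+/+ and Smarca4+/-, gave 2 libraries of total RNA depleted of ribosomal RNA. The sources used here do not give how the CB cells were separated, how the Smarca4 allele was made, or whether replicates were single mice, pools or repeat preparations. Each p therefore rests on library-to-library spread alone, part of which may be technical.

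Smarca4, also called Brg1, is an ATPase of the SWI/SNF complexes, which use energy from ATP to slide or evict nucleosomes at promoters and enhancers. Centroblasts are the dark zone B cells of the germinal centre, where they divide rapidly and mutate their immunoglobulin genes before moving to the light zone as centrocytes. Replication-dependent histone genes, mostly clustered on mouse chromosome 13, are transcribed in S phase, and their RNA ends in a stem-loop in place of a poly(A) tail. The mitochondrial genome encodes core subunits of the respiratory chain, whose other subunits are encoded in the nucleus.

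The 2 genes called higher (adjusted p under 0.05), Hist1h4c and Hist1h4d, both encode histone H4, and the RNA hairpin that marks this gene class was found in both. It is shown because both called genes carry it. The 16-base pattern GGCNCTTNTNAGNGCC, searched on the sense strand of the GENCODE M21 transcripts, was in 36 of the 55 tested histone genes (65.5%) and in 12 of 21815 other protein-coding genes (0.055%). Capitals mark the whole match, at chr13:23698089-23698104 on the minus strand for Hist1h4c and chr13:23581950-23581965 on the plus strand for Hist1h4d (mm10):
Hist1h4c: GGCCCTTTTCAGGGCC
Hist1h4d: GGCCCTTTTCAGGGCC

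The promoters of the same 2 genes are shown beside one H2B and one H1 gene, since the histone classes differ in the letters near their start sites. Each run is the 150 bases before the start, from RefSeq on GRCm38.p6, and 51 of the 55 tested histone genes had an entry. Capitals mark CCAAT and the octamer ATTTGCAT, each on either strand, and TATAAA on the sense strand, with no overlap between the 3 in these runs. The coordinates are chr13:23698459-23698608 (minus strand) for Hist1h4c, chr13:23581418-23581567 (plus) for Hist1h4d, chr13:23571250-23571399 (plus) for Hist1h2bg and chr13:23763518-23763667 (plus) for Hist1h1a:
Hist1h4c: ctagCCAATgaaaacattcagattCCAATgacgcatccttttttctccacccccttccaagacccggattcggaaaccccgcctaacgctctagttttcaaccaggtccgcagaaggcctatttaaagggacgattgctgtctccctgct
Hist1h4d: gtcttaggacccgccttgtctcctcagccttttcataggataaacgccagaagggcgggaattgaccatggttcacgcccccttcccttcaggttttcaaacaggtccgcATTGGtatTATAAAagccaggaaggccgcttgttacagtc
Hist1h2bg: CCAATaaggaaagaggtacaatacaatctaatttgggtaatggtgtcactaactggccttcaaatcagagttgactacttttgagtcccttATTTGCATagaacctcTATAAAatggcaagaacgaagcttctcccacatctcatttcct
Hist1h1a: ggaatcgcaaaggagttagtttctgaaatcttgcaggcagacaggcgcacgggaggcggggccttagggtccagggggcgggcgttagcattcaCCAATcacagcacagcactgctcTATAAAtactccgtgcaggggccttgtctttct

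CCAAT was in 84.3% of the 51 tested histone promoters and in 25.3% of all 27025 promoters in the RefSeq table over the same length. TATAAA was in 39.2% against 5.26%, and ATTTGCAT in 17.6% against 1.02%. Within the histones, CCAAT was in every tested H1, H2A, H2B and H3 promoter with an entry but in 3 of 11 H4 promoters. The octamer was in 5 of 13 H2B and 4 of 14 H2A promoters. Windows of neighbouring genes on opposite strands can overlap, so the promoters are not all separate sequences. Those of Hist1h2bg and Hist1h2ae (chr13:23571221-23571370, minus strand) share their octamer, which is counted in both classes. TATAAA was in 3 of 13 H2B promoters, so Hist1h2bg, which holds all 3 motifs, is a single example and not typical of its class. These matches describe the letters only.

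The labels were first set against the cells' own markers. Summed over the 31 mitotic genes, the CB libraries held 8663 to 11110 CPM (read counts scaled to a common total per library, with TMM factors) and the 4 centrocyte (CC) libraries 2509 to 6329. Cxcr4, the chemokine receptor of the dark zone, stood at 182 to 243 CPM in CB and 32.2 to 78.3 CPM in CC. The CB values use TMM factors of the 4 CB libraries and the CC values those of all 8, so the scales are not identical. All 14 B cell identity genes were tested and summed to 10170 to 11820 CPM in CB. The CB libraries held 18357578 to 24341805 counts, with 17.5% to 31.2% in the ribosomal RNA locus. The 2 Smarca4+/+ libraries were the least alike pair (Pearson r of log2 CPM across genes 0.955) and the 2 Smarca4+/- libraries the most alike (0.973), with 0.964 to 0.966 between genotypes. Macrophage and monocyte markers, 15 of 19 tested, summed to 65.6 and 317 CPM in Smarca4+/+ replicates 1 and 2 and to 139 and 89.9 CPM in Smarca4+/-, so the second Smarca4+/+ library stood apart. Their part in the results below was not tested, and values without that library are given where they matter. T cell markers, 7 of 20 tested, summed to 11.4 and 7.86 CPM in Smarca4+/+ and to 6.4 and 5.14 CPM in Smarca4+/-, and Cd3e was at 0 counts in both Smarca4+/+ libraries, which allows a level of up to 0.144 and 0.132 CPM. Erythroid markers, 6 of 12 tested, summed to 18.4 and 15 against 13.2 and 9.82 CPM. Xist, expressed from the inactive X chromosome, and the Y-linked Ddx3y were both read in every library, at 544 to 1111 and 6.6 to 31.1 CPM, and overlapped between genotypes.

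Smarca4 itself (ENSMUSG00000032187.16, mm10 chromosome 9, 21616169 to 21704230, plus strand) stood at 849 and 948 CPM in Smarca4+/+ centroblasts and at 695 and 664 CPM in Smarca4+/- centroblasts. Both heterozygous libraries lay below both wild type ones, on 13917 to 21465 counts each. The log2 fold change, heterozygous over wild type throughout, was -0.40 (SE 0.12). It did not pass the edgeR quasi-likelihood test after Benjamini-Hochberg adjustment over all genes (unadjusted p = 0.00276, adjusted p = 0.546) and passed in DESeq2 (adjusted p = 0.0424). Smarca2, the alternative ATPase of the same complexes, stood at 58.9 and 49.0 against 41.3 and 45.0 CPM (log2 fold change -0.32, adjusted p = 0.986). Among the 10 tested core SWI/SNF subunits the edgeR test called 0, with 1 at an unadjusted p under 0.05 (Smarca4), DESeq2 called Smarca4 alone and limma-voom called 0. The median log2 fold change of the core list was 0.05, and of 18 variant subunits -0.02, beside -0.0034 over all genes tested.

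In the main test 9 genes passed an adjusted p of 0.05: 7 were lower (0.0518% of those tested) and 2 higher (0.0148%) in Smarca4+/- centroblasts. At an unadjusted p under 0.05, 354 genes (2.62%) were higher and 316 (2.34%) lower. Both heterozygous libraries lay above both wild type libraries for 2212 genes (16.4%) and below for 2183 (16.2%). The log2 fold change was positive for 6674 genes (49.4%) and negative for 6827. These shares are the background for the counts that follow. The 9 genes were 6 protein genes of the mitochondrial genome, the immunoglobulin gene Igha, and the 2 H4 genes. In a fit to all 8 libraries, centrocytes included, 0 passed, with 184 higher and 233 lower at an unadjusted p under 0.05, while DESeq2 on the 4 libraries called 11 higher and 10 lower and limma-voom 2 and 7.

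**Figure D1:**
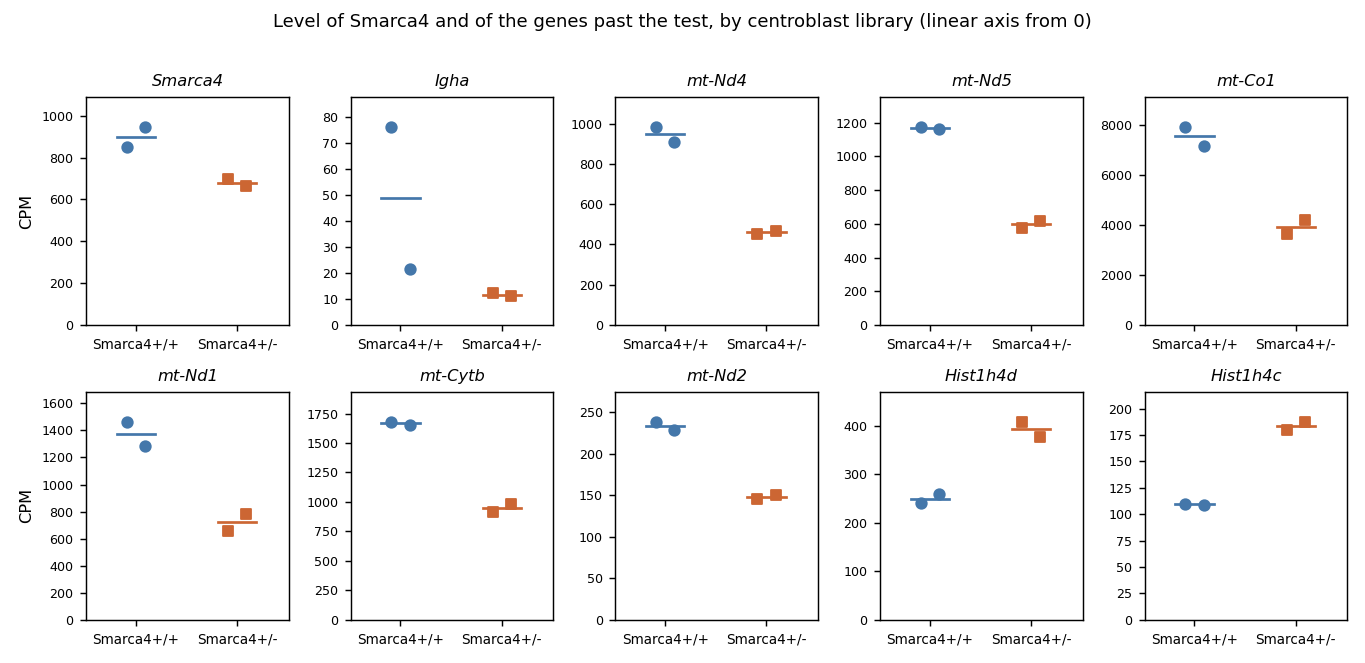
Level in CPM (linear axis from 0) of Smarca4 and of the 9 genes past the edgeR test in each of the 2 Smarca4+/+ (circles) and 2 Smarca4+/- (squares) centroblast libraries. The horizontal lines are group means; in every panel the groups do not overlap, and for Igha 1 wild type library lies far above the other, at 76.4 against 21.7 CPM.

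RNA from the mitochondrial genome was lower in heterozygous centroblasts, in subunits of several respiratory complexes. For complex I, mt-Nd4 stood at 984 and 909 CPM in Smarca4+/+ and at 454 and 466 CPM in Smarca4+/-. It fell by 1.04 on the log2 scale (SE 0.12, edgeR adjusted p = 0.000143). The groups were far apart relative to the gap within each. Of the other complex I subunits, mt-Nd5 fell from 1176 and 1163 to 575 and 619 CPM (log2 fold change -0.97, SE 0.12, adjusted p = 0.000254). mt-Nd1 fell from 1465 and 1285 to 657 and 783 CPM (-0.93, SE 0.13, adjusted p = 0.00101). mt-Nd2 fell least of the called 6, from 238.5 and 228.5 to 145 and 150 CPM (-0.66, SE 0.12, adjusted p = 0.0328).

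Cytochrome b of complex III, mt-Cytb, fell from 1681 and 1654 to 916 and 985 CPM (-0.81, SE 0.12, adjusted p = 0.0029). The most abundant of the list, the complex IV catalytic subunit mt-Co1, fell from 7940 and 7185 to 3662 and 4208 CPM (-0.94, SE 0.14, adjusted p = 0.00349). Per length the order of the called 6 in wild type was mt-Co1 (4895 RPKM, CPM per kilobase of exon), mt-Cytb (1458), mt-Nd1 (1437), mt-Nd4 (687), mt-Nd5 (641) and mt-Nd2 (225).

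The 13 protein genes of that genome were not equally measured. Of these, 9 were tested and all 9 had a negative log2 fold change. Both heterozygous libraries lay below both wild type ones for 8 (background 16.2%), and 6 passed the test. mt-Nd6, the subunit on the other strand, stood at 22.3 and 19.1 against 11.89 and 11.95 CPM (-0.79, adjusted p = 0.542). mt-Co2 and mt-Co3 held 4 to 54 counts a library and mt-Nd3, mt-Atp6, mt-Nd4l and mt-Atp8 held 0 to 14. Several of these share sequence with nuclear copies. The sources used here do not give how reads with several matches were handled. The list's median log2 fold change was -0.84, from -1.03 to -0.72 in the 4 pairs of a heterozygous with a wild type library (on log2 of CPM plus 0.5). The 2 pairs within a genotype gave -0.11 and 0.11.

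The list summed to 13510 and 12450 CPM in Smarca4+/+ and to 6422 and 7225 CPM in Smarca4+/-. With 1 library left out at a time, mt-Nd4, mt-Nd5 and mt-Nd1 passed in all 4 fits. mt-Cytb and mt-Co1 did not pass without Smarca4+/+ replicate 2 (adjusted p = 0.0701 and 0.207), and mt-Nd2 without either Smarca4+/+ replicate (0.235 without replicate 1 and 0.0592 without replicate 2). Scaling by total counts alone left 0 of the 6 past the test, with a list median of -0.78, and without a low count filter mt-Nd2 did not pass. In bulk RNA, fewer cells of a type and less RNA per cell cannot be told apart.

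The 2 ribosomal RNAs of mitochondria overlapped between genotypes and turned direction with 1 library. mt-Rnr2 stood at 117.5 and 16.6 CPM in Smarca4+/+ and at 71.4 and 33.7 CPM in Smarca4+/-, and mt-Rnr1 at 64.5 and 11.6 against 47.8 and 22.4 CPM. Replicate 1 was the higher in each genotype, and the libraries had been depleted of ribosomal RNA. Without Smarca4+/+ replicate 1 both passed the edgeR test as higher in Smarca4+/- (mt-Rnr1 1.61, adjusted p = 4.43e-06; mt-Rnr2 1.68, adjusted p = 9.23e-08). Without Smarca4+/+ replicate 2 both passed as lower (-0.87, adjusted p = 0.0229, and -1.16, adjusted p = 4.32e-05). With all 4 libraries the log2 fold changes were -0.11 and -0.35 (adjusted p = 0.999 for each). The nuclear genes that transcribe mitochondrial DNA or keep its RNA stable, a list added after values were seen, had 27 tested members. Of them 13 had a positive and 14 a negative log2 fold change, with a median of -0.0034. edgeR, DESeq2 and limma-voom each called 0 of them, and 0 had an unadjusted p under 0.05. Among them, the transcription factor Tfb2m stood at 8.56 and 10.6 against 8.49 and 7.45 CPM.

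Nuclear genes of oxidative phosphorylation leaned the other way from the mitochondrial ones. Of 76 tested, 69 had a positive log2 fold change and 48 lay above wild type in both heterozygous libraries (background 16.4%). edgeR, DESeq2 and limma-voom called 0, and 14 were higher at an unadjusted p under 0.05 (background 2.62%). Their median was 0.23, from 0.21 to 0.25 in the 4 library pairs between genotypes and -0.02 and 0.04 within them. Ndufa5, of complex I, stood at 5.10 and 3.62 CPM in Smarca4+/+ and at 12.1 and 12.2 CPM in Smarca4+/- (log2 fold change 1.48, SE 0.33, adjusted p = 0.147). Cox6a1, of complex IV, stood at 40.0 and 42.8 against 62.2 and 61.8 CPM.

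**Figure D2:**
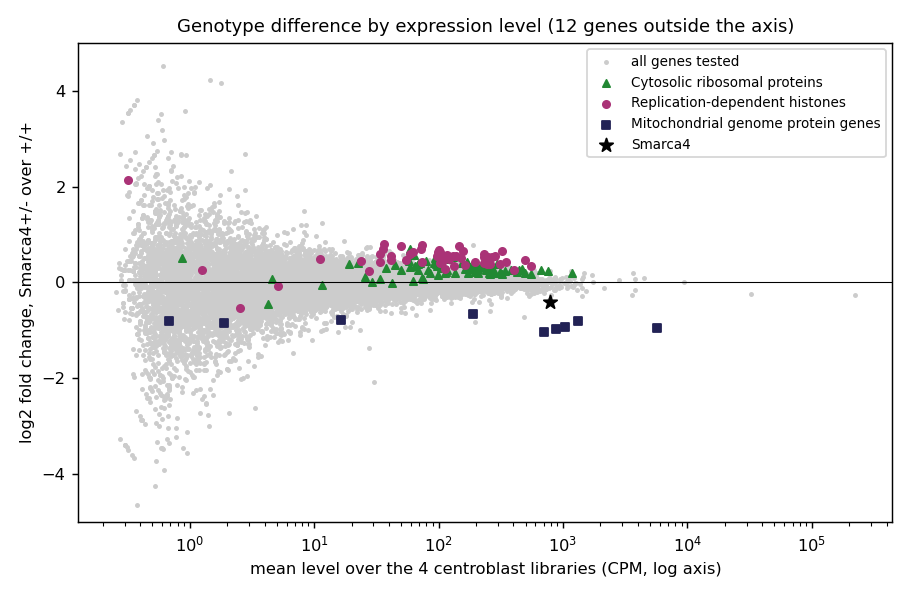
Log2 fold change (Smarca4+/- over Smarca4+/+) of all 13501 genes tested against their mean level over the 4 centroblast libraries (CPM, log axis), with 12 genes outside the vertical axis. Squares are mitochondrial genome protein genes, all below 0; circles are replication-dependent histones (53 of 55 above 0), triangles ribosomal protein genes (76 of 79 above 0) and the star Smarca4.

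Of the replication-dependent histones, 2 passed the test, both H4 genes, and the median log2 fold change was positive in each of the 5 classes. Hist1h4c (ENSMUSG00000060678.5, mm10 chromosome 13, 23697635 to 23698454, minus strand) stood at 110 and 109 CPM in Smarca4+/+ and at 180 and 188 CPM in Smarca4+/-. It rose by a log2 fold change of 0.75 (SE 0.13, edgeR adjusted p = 0.0117). Hist1h4d (ENSMUSG00000061482.7, 23581598 to 23582735, plus strand) rose from 241 and 259 to 408 and 376.5 CPM (0.65, SE 0.12, adjusted p = 0.0322). The groups did not overlap for either gene. Hist1h4c did not pass without Smarca4+/+ replicate 1 (adjusted p = 0.0764), nor Hist1h4d without Smarca4+/+ replicate 1 (0.298) or 2 (0.0794). Neither passed with total count scaling or without a low count filter.

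Of 62 listed histone genes 55 were tested, and 53 of these had a positive log2 fold change. Both heterozygous libraries lay above both wild type ones for 46 (background 16.4%), and 47 had an unadjusted p under 0.05 (background 2.62%). edgeR and limma-voom called 2 and DESeq2 called 11. The genes share sequence, so reads may have moved between copies and the members are not independent. The list's median was 0.51, from 0.32 without Smarca4+/+ replicate 1 to 0.78 without Smarca4+/+ replicate 2. Its summed level was 5714 and 7292 CPM in Smarca4+/+ and 8752 and 9393 CPM in Smarca4+/-.

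The spread between the 2 wild type libraries was large for this list. Their median difference was 0.45, beside 0.23 to 0.81 in the 4 pairs between genotypes and 0.10 between the heterozygous libraries. The replicate with the lower histone level in wild type was replicate 1, as the plot of library pairs shows.

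**Figure D3:**
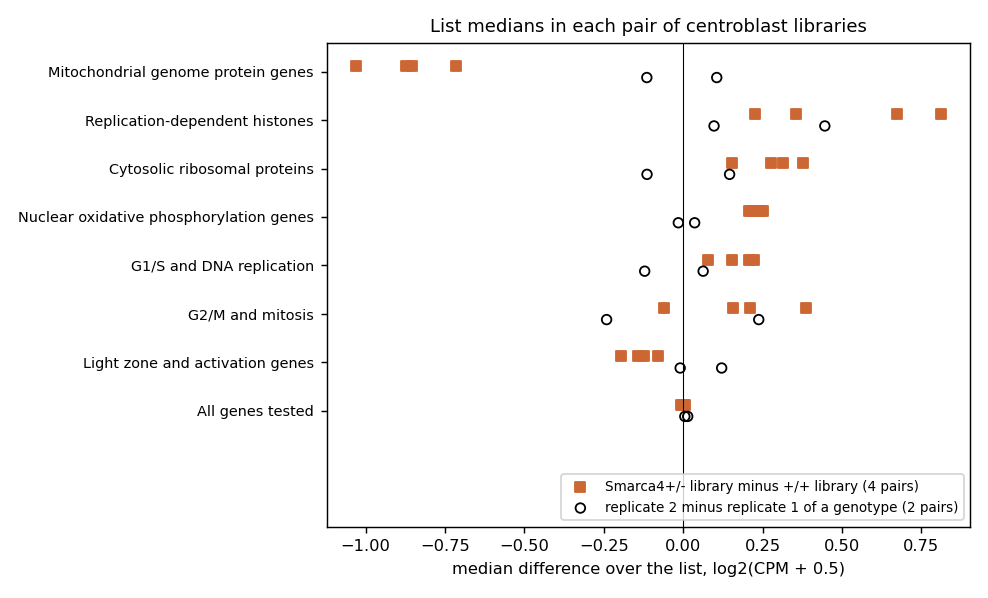
Median difference over each gene list, in log2(CPM + 0.5), for the 4 pairs of a Smarca4+/- with a Smarca4+/+ library (squares) and the 2 pairs of replicates within a genotype (open circles). For mitochondrial genome genes the squares (-1.03 to -0.72) are far from the circles (-0.11 and 0.11), while for histones 1 circle (0.45) lies among the squares (0.23 to 0.81).

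By class, the core histone H4 had the highest median, 0.65. All 11 of its genes lay above wild type in both heterozygous libraries (background 16.4%, also for the classes below). Hist1h4j stood at 45.6 and 63.4 against 91.9 and 96.2 CPM (0.79, adjusted p = 0.0713), and Hist1h4k at 108 and 139 against 197 and 190 CPM (0.65, adjusted p = 0.11). H2B, which pairs with H2A in the nucleosome, had a median of 0.52 over 15 tested genes, 14 of them above. Hist1h2bg stood at 180 and 230 against 287 and 302 CPM (0.52, adjusted p = 0.324). For H3 the median was 0.48 over 10 genes, 9 above, and for H2A 0.44 over 14 genes, 7 above. The wild type libraries differed by a median (replicate 2 minus replicate 1) of 0.36 for H4 and 0.50 for H2B. For H3 that difference was 0.43 and for H2A 0.59.

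The 5 linker histones of class H1, which bind the DNA between nucleosomes, had a median of 0.38, and all 5 lay above (background 16.4%). The wild type libraries differed by a median of 0.03 for this class. Hist1h1a stood at 239 and 223 against 369 and 307 CPM (0.55, SE 0.13, adjusted p = 0.181). The 2 members with a negative value, Hist2h2ab and Hist2h2be, were low, at 1.00 to 3.20 and 4.95 to 5.34 CPM. Whether the classes differ in response was not tested.

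A pair of further lists, both added after values were seen, set the histones beside related genes. Replacement histones, made also outside S phase and mostly polyadenylated, had 12 tested members, 10 of them positive, with a median of 0.20. 0 had an unadjusted p under 0.05 and edgeR, DESeq2 and limma-voom called 0. H2afz, the variant H2A.Z, stood at 82.8 and 97.7 against 107 and 105 CPM. Factors that transcribe histone genes or process their RNA had 18 tested members with a median of 0.07, and the 3 tools called 0 of them. Slbp, which binds the stem-loop shown above, stood at 191 and 193 against 231 and 201 CPM, and Eri1, an exonuclease that trims it, at 111 and 97.7 against 139 and 118 CPM (0.30, unadjusted p = 0.042).

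Cell cycle genes had positive medians, with 0 called. Of 28 tested G1/S and replication genes, 25 were positive, 17 lay above wild type in both heterozygous libraries (background 16.4%) and 3 were higher at an unadjusted p under 0.05 (background 2.62%). Their median was 0.17, and edgeR, DESeq2 and limma-voom called 0. Rrm2, the ribonucleotide reductase subunit that makes deoxynucleotides in S phase, stood at 180 and 197 against 270 and 219 CPM (0.38, adjusted p = 0.797). Pcna, the replication clamp, stood at 193 and 187 against 248 and 221 CPM.

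The 31 G2/M and mitosis genes also had a median of 0.17, with 29 positive (background 49.4%) and 0 called by the 3 tools. Of them 7 lay above in both libraries (background 16.4%) and 5 were higher at an unadjusted p under 0.05 (background 2.62%). The list median was 0.05 without Smarca4+/- replicate 1, and 1 of the 4 library pairs was negative (-0.06). Ttk, a kinase of the spindle checkpoint, stood at 28.8 and 33.8 against 51.5 and 47.1 CPM (0.66, adjusted p = 0.371). Mki67, the proliferation antigen, overlapped between groups, at 3568 and 3880 against 4290 and 3483 CPM.

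Genes that define the germinal centre zones stayed under the threshold. Of 11 tested dark zone genes outside the cell cycle, 9 were positive, with a median of 0.11. In this list 3 lay above (background 16.4%) and 1 was higher at an unadjusted p under 0.05 (background 2.62%). Cxcr4 stood at 191 and 182 against 243 and 225 CPM (0.33, unadjusted p = 0.014, adjusted p = 0.859). Of 24 light zone and activation genes, 20 were negative and 8 lay below wild type in both heterozygous libraries (background 16.2%), with a median of -0.17 and 0 at an unadjusted p under 0.05. Egr1, an early response factor, stood at 53.5 and 44.7 against 31.7 and 44.5 CPM, and the activation marker Cd83 at 146 and 124 against 112 and 124 CPM. edgeR, DESeq2 and limma-voom called 0 members of either list.

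Signalling lists leaned to negative values with no member called by the 3 tools. Of 24 NF-kB subunits and feedback genes, 20 were negative, beside 6827 of all 13501 tested. In that list 10 lay below (background 16.2%) and 2 were lower at an unadjusted p under 0.05 (background 2.34%), with a median of -0.08. Nfkb2 stood at 77.7 and 78.3 against 56.4 and 66.5 CPM (-0.34, adjusted p = 0.982). Of 22 B cell receptor signalling genes 17 were negative, with a median of -0.07 and 0 at an unadjusted p under 0.05. Of 15 MHC class II presentation genes 13 were negative (median -0.15), with 1 lower at an unadjusted p under 0.05 (background 2.34%). The MHC class II median was -0.0027 without Smarca4+/+ replicate 1. Of 25 interferon stimulated genes 20 were negative, with a median of -0.25. In this list 7 lay below (background 16.2%) and 1 was lower at an unadjusted p under 0.05 (background 2.34%). That list is expressed at a low level, 250 to 301 CPM in sum.

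Transcription factors of the germinal centre differed little. The 25 tested had a median of -0.02, 0 at an unadjusted p under 0.05 and 0 called by edgeR, DESeq2 or limma-voom. Bcl6, the repressor that maintains the germinal centre state, stood at 612 and 533 against 509 and 554 CPM, with overlapping groups. Bach2, a repressor of plasma cell fate, stood at 1608 and 1665 against 1476 and 1430 CPM (-0.17, SE 0.12, adjusted p = 0.996). Spi1 stood at 90.4 and 84.2 against 93.3 and 100.7 CPM, and Pou2af1 at 1364 and 1412 against 1592 and 1401 CPM. Foxo1, a dark zone factor, stood at 395 and 374 against 392 and 393 CPM. Myc was low in every library, 22.5 to 27.4 CPM, and so were Irf4 (32.5 to 56.3 CPM), Ccnd2 (6.00 to 11.9 CPM) and Prdm1 (2.18 to 5.20 CPM), each overlapping between genotypes.

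**Figure D4:**
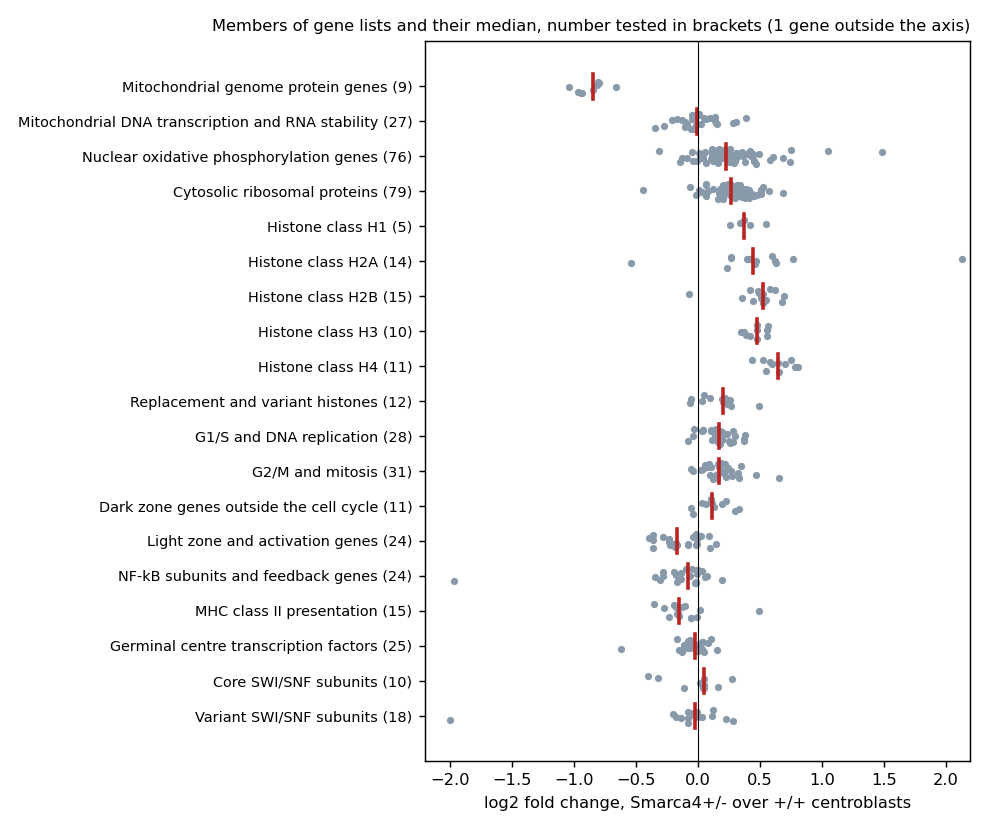
Log2 fold change (Smarca4+/- over Smarca4+/+) of each tested member of 19 gene lists, with the number tested in brackets and the median as a red bar; 1 gene lies outside the axis. The mitochondrial genome genes have a median of -0.84, the histone classes 0.38 to 0.65, and the other lists shown -0.17 to 0.27.

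Ribosomal protein genes, the constant parts of the cytosolic ribosome, showed a broad small shift. Of 79 tested, 76 were positive, 55 lay above wild type in both heterozygous libraries and 37 had an unadjusted p under 0.05 (backgrounds 16.4% and 2.62%), with a median of 0.27. edgeR, DESeq2 and limma-voom called 0. In the 4 library pairs between genotypes the list median ran from 0.155 to 0.378. Within genotypes (replicate 2 minus replicate 1) it was -0.114 for wild type and 0.146 for heterozygous, so the smallest pair was near the replicate difference. Rps21 stood at 45.2 and 44.9 against 58.6 and 86.7 CPM (0.69, SE 0.17, adjusted p = 0.324). Among 11 spliceosomal Sm and U snRNP genes, a list added after values were seen, 10 were positive (median 0.13) and 3 had an unadjusted p under 0.05, among them Snrpd2 at 19.5 and 20.3 against 34.5 and 32.3 CPM. Of 37 proteasome genes, also added, 31 were positive with a median of 0.12 and 4 had an unadjusted p under 0.05, and the 3 tools called 0 of either list.

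These lists hold short genes, and the difference varied with gene length over all protein-coding genes. The median log2 fold change was 0.54 for the 32 genes with up to 500 bases of exon, 0.21 for 196 genes of 500 to 1000 bases, 0.08 for 1000 to 2000 bases and -0.05 for the 1096 genes over 10000 bases. Without histone, ribosomal protein, oxidative phosphorylation and mitochondrial genome genes, the medians were 0.12 for 500 to 1000 bases (147 genes) and -0.05 over 10000. Of the 32 shortest genes only 6 lay outside these lists (median 0.75), so the 0.54 comes mostly from listed genes. The median length was 530 bases for the histones, 1770 for the ribosomal protein genes and 1737 for the nuclear oxidative phosphorylation genes, against 3890 over all genes tested and 1038 for the mitochondrial genome genes, whose difference was negative.

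With a length trend taken out of each library, an alternative added after values were seen, 0 histones passed the edgeR test. Their median was then 0.44, the ribosomal protein median 0.25, that of the nuclear oxidative phosphorylation genes 0.19 and that of the mitochondrial genes -0.93. The called lower genes still numbered 7. The sources used here give no value for RNA quality.

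**Figure D5:**
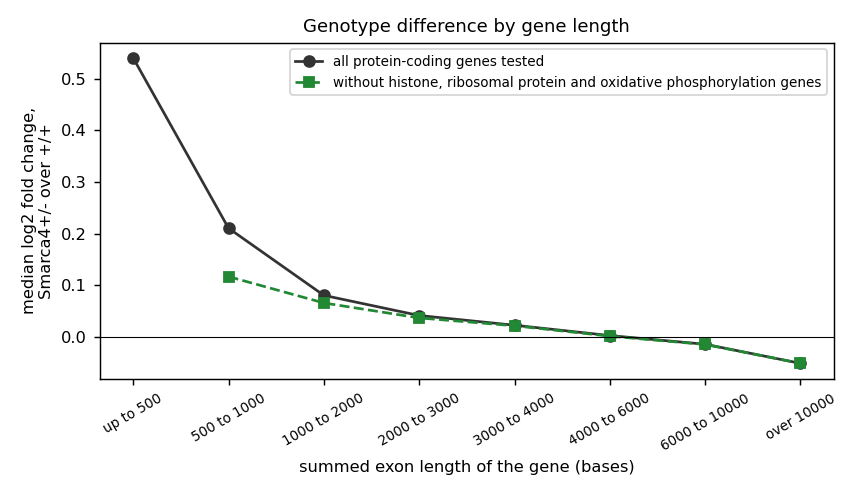
Median log2 fold change (Smarca4+/- over Smarca4+/+ centroblasts) of protein-coding genes in 8 ranges of summed exon length in bases. Circles are all tested genes, from 0.54 for the shortest to -0.05 for the longest. Squares leave out histone, ribosomal protein, oxidative phosphorylation and mitochondrial genome genes and are drawn for ranges with at least 20 genes. In the shortest range 6 of 32 genes lie outside those lists.

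The remaining called gene was Igha, the constant region of IgA heavy chains (mm10 chromosome 12, 113254830 to 113260236, minus strand). It stood at 76.4 and 21.7 CPM in Smarca4+/+ and at 12.2 and 11 CPM in Smarca4+/-. It fell by 2.08 on the log2 scale (SE 0.34, edgeR adjusted p = 0.00849). Without Smarca4+/+ replicate 1, which alone stood above 22 CPM, the log2 fold change was only -0.89. Igha did not pass in limma-voom (adjusted p = 0.188) or with edgeR's earlier estimation (adjusted p = 0.11). Nor did it pass in edgeR without a low count filter (adjusted p = 0.254) or with all 8 libraries (adjusted p = 0.235).

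Of the other constant genes, Ighg1 (IgG1) stood at 704 and 503 against 336 and 400 CPM (-0.71, SE 0.14, edgeR adjusted p = 0.0675) and passed in DESeq2 (adjusted p = 0.00148) and limma-voom (0.0413). Without Smarca4+/+ replicate 1, the higher of the wild type libraries, its log2 fold change was -0.44 (adjusted p = 0.637). Ighm (IgM) stood at 4653 and 3993 against 5011 and 4194 CPM, and Ighg2b at 135 and 141 against 159 and 134 CPM, both overlapping. Jchain, which joins IgM and IgA into polymers, stood at 306 and 261 against 363 and 333 CPM (0.30, adjusted p = 0.967). The 178 tested immunoglobulin V segments, which share sequence, had a median of 0.24, lay on both sides of 0 (116 positive and 62 negative), and their median was 0.03 without Smarca4+/- replicate 1.

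Outside these groups, a few further genes are given by their values, and none of them passed the edgeR test. Chst15, a sulfotransferase of chondroitin sulfate, stood at 87.6 and 75.2 against 47.9 and 53.8 CPM (-0.68, SE 0.15, edgeR adjusted p = 0.159, DESeq2 adjusted p = 0.0158). Kcnq1ot1, an imprinted antisense RNA that cannot be told apart from its overlapping gene without the strand setting, stood at 292 and 320 against 213 and 234 CPM (-0.45, edgeR adjusted p = 0.425, DESeq2 adjusted p = 0.0345). Arhgef18 stood at 17.3 and 13.3 against 7.84 and 7.32 CPM (-1.01, adjusted p = 0.444), Cttn, an actin-binding protein, at 13.1 and 18.1 against 7.24 and 8.41 CPM (-0.99, adjusted p = 0.451), and Zfp608 at 108 and 97.7 against 56.6 and 81.8 CPM (-0.57, adjusted p = 0.451). Fcer2a, the low affinity IgE receptor of resting B cells, stood at 72.9 and 48.6 against 34.4 and 44.6 CPM (-0.62). In all of these the groups did not overlap.

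Among chromatin regulators outside SWI/SNF, Hdac2, a histone deacetylase, stood at 27.0 and 31.0 against 46.7 and 36.4 CPM (0.52, adjusted p = 0.811). Tet3, which oxidises methylated cytosine, stood at 348 and 357 against 248 and 322 CPM (-0.31, adjusted p = 0.972), and the remodeller Chd3 at 124 and 134 against 152 and 174 CPM (0.34, adjusted p = 0.903). Of 34 histone and DNA modifiers 2 were higher and 2 lower at an unadjusted p under 0.05 (backgrounds 2.62% and 2.34%). Of 26 other SNF2 family remodellers 2 were higher and 0 lower, and edgeR, DESeq2 and limma-voom called 0 of either list.

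Whether the genotype difference in centroblasts departs from that in centrocytes was tested as an interaction over all 8 libraries. The CC libraries held 526353 to 837558 counts, and macrophage and monocyte markers summed to 2081 to 4719 CPM in them. T cell markers summed to 738 and 713 CPM in Smarca4+/+ CC and to 354 and 77.1 CPM in Smarca4+/- CC. Erythroid markers summed to 750.5 and 830 against 518 and 147 CPM. The part of these other cells in the interaction was not tested. Of 12997 genes, 2 passed the edgeR test, both immunoglobulin genes, 1020 had an unadjusted p under 0.05, DESeq2 called 232 and limma-voom 0. No mitochondrial genome gene passed: for mt-Nd4 the interaction was -0.76 (edgeR unadjusted p = 0.0597, adjusted p = 0.651), and the summed level of the list in CC was 51160 and 38490 CPM in Smarca4+/+ and 51970 and 21960 CPM in Smarca4+/-. Nor did Hist1h4c (0.55, adjusted p = 0.807), Hist1h4d (0.15, adjusted p = 0.922) or Smarca4 (-0.21, adjusted p = 0.86). Igha did not pass either (2.575, edgeR unadjusted p = 0.00104, adjusted p = 0.315). In CC it stood at 683 and 705 CPM in Smarca4+/+ and at 18.7 and 35.6 CPM in Smarca4+/-.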

How the data were processed

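Bulk RNA was sequenced from splenic germinal centre B cells. The authors deposited raw read counts per gene without normalization, and the submitters' processing notes list STAR, featureCounts from Subread, FastQC, the build mm10 and R 4.2.1. The sources used here do not give the strand setting or how reads with several matches were counted. The other deposited unit is a length column, the summed exon length in bases per the file headers.

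The 4 CB libraries (18357578 to 24341805 counts) were fitted with edgeR 4.0.16 in R 4.3.3: filterByExpr (minimum count 10, minimum total 15), TMM scaling, a mean per genotype, 2 residual degrees of freedom, and the quasi-likelihood F test, 2-sided, with Benjamini-Hochberg adjustment over 13501 genes at 0.05. Standard errors were derived by dividing the log2 fold change by the square root of F, and CPM are TMM-scaled. A pseudocount of 0.5 CPM was used only for differences between library pairs. The fit was tested on simulated data. Genes were matched to GENCODE M21 (54587 of 55421 by versioned ID). Alternatives were DESeq2 1.42.0, limma-voom (limma 3.58.1), other scalings and filters, a replicate block, each library left out, all 8 libraries, and the removal of a length trend.

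Gene lists are described by counts and medians only. Named genes followed a rule: called genes with at least 5 CPM and no overlap, called members of lists, 18 set genes, the smallest p values in each direction (15 among all genes, 1 per list), and a few list members beside them that were chosen after their values were seen. The libraries and lists were chosen with earlier results of these data known. The limit given beside a count of 0 is 3 counts and covers counting error only (no molecular identifiers). Some genes that the naming rule would give are not reported here.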

Additional observations from a re-analysis of the deposited data

Results flagged for a closer look

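The genotype difference in centroblasts departed from that in centrocytes for 2 genes by the edgeR interaction test over all 8 libraries. Ighv1-42, an immunoglobulin heavy chain V segment, had an interaction of 4.88 on the log2 scale (adjusted p = 0.00343). It stood at 22.4 and 21.2 CPM in Smarca4+/+ and 29.1 and 13.8 CPM in Smarca4+/- centroblasts, and at 197 and 255 against 8.01 and 7.11 CPM in the CC libraries. Ighg2b, the IgG2b constant gene, had an interaction of 2.17 (adjusted p = 0.00568), with 142 and 149 against 168 and 142 CPM in centroblasts and 406 and 517 against 102 and 116 CPM in CC (CPM of the fit to all 8 libraries). In both genes the centroblast groups overlapped and the CC groups did not. Which cells or clones carried these transcripts was not tested.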

How the results depend on the processing

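The count of genes higher in Smarca4+/- centroblasts, 2 in the main test, was 11 in DESeq2, 22 with a replicate block, and 0 with edgeR's earlier estimation, with total count scaling, with no low count filter, in the fit to all 8 libraries (184 at an unadjusted p under 0.05) and with the length trend removed. With 1 library left out it was 18 to 60. The count lower, 7, was 1 with total count scaling, 11 with the replicate block, 0 in all 8 libraries (233 unadjusted) and 8 to 54 with 1 library left out. RLE scaling, limma-voom, the stricter filter and the removal of immunoglobulin and ribosomal RNA locus genes kept both counts within 1.5 times. The earlier estimation and the fit with no low count filter each called 5 genes, all lower, without Igha and mt-Nd2. Of the 9 called genes, 8 were also called by DESeq2 (which gave Igha no adjusted p) and 8 by limma-voom. Smarca4 passed only in DESeq2 (-0.40, adjusted p = 0.0424). The interaction count, 2, was 232 in DESeq2, 0 in limma-voom and 0 with the earlier estimation. Without immunoglobulin genes it was 0, which cannot speak to the 2 called genes, since that setting takes both out. Fits with 3 libraries have 1 residual degree of freedom, assume that the lone library varies like the other group, and in the fit without Smarca4+/+ replicate 1 used the earlier estimation.

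The labels give both genotypes the same replicate numbers but do not say that they mark a shared mouse or day, and the deviations of same-numbered libraries correlated at -0.0267 across genes. The replicate block called 22 higher and 11 lower genes, including all 9 of the main test, and 19 of the histones.

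The log2 fold changes of 25 named genes, none called in the main test, changed sign, 24 of them with 1 library left out. Leaving out Smarca4+/+ replicates 1 and 2 gave the extremes for Axl (-1.60 and 0.46), Clu (1.77 and -1.89), Bcl6 (0.0090 and -0.20), Fcgr2b (0.22 and -0.020), Cdt1 (-0.20 and 0.068), Xist (0.71 and -0.32), Cenpa (-0.17 and 0.093), Foxo1 (0.083 and -0.0037), Myc (-0.13 and 0.15), mt-Rnr1 (1.61 and -0.87) and mt-Rnr2 (1.68 and -1.16). The 2 mitochondrial ribosomal RNAs passed in both of these directions, and were at 0.28 and 0.17 in limma-voom and 0.11 and 0.0016 with the replicate block. Leaving out Smarca4+/- replicates 1 and 2 did so for Hist2h2ab (-1.57 and 0.10), Cd44 (-0.14 and 0.32), Mki67 (-0.092 and 0.21), Prdm1 (-0.94 and 0.31), Csf3r (-7.01 and 0.64, against a library at 0 counts), Ccnd2 (-0.64 and 0.34), Cdh5 (0.11 and -0.014), Irf4 (-0.46 and 0.34), Ighg2b (-0.036 and 0.21), Ighm (-0.039 and 0.22), Ighv1-42 (-0.65 and 0.42) and Ddx3y (0.11 and -1.82). Eif2s3y ranged from -2.84 without Smarca4+/- replicate 2 to 0.30 without Smarca4+/+ replicate 2. Total count scaling, which moved the median of all genes to 0.06, gave 0.0094 for S1pr2, 0.019 for Cenpa, 0.0087 for Ccnd2, 0.075 for Irf4, 0.068 for Myc and 0.068 for Ighv1-42. Of 42 list medians, 9 changed sign with total count scaling, 10 without Smarca4+/- replicate 1, 2 without Smarca4+/- replicate 2, 5 without Smarca4+/+ replicate 1, 7 without Smarca4+/+ replicate 2, and at most 1 under each other alternative. The cause was not tested.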
